A study of Mus musculus with 15 samples.

Results

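The 44 genes that build, attach and process N-linked glycans were followed in leukemic spleen cells from 2 mouse genotypes. The members were chosen by gene name, as enzymes, subunits and chaperones of the N-glycan pathway with a row in each of the 2 deposited tables, and the list was drawn up with results of these data known. All 44 were found, among 16470 genes in the DMSO table, 16428 in the ibrutinib table and 15869 in both, and no member had a value of 0 in any library. Eμ-TCL1 mice carry the TCL1 oncogene under the B-cell-directed Eμ enhancer, and Eμ-TCL1;p53R172H/+ mice (called p53-mutant here) carry in addition one germline copy of the R172H allele of Trp53, in all cells, beside a wild-type copy. The paper assessed loss of this wild-type copy in diseased spleens and lymph nodes of p53-mutant mice. Whether the cells sequenced here kept it is not given. Both genotypes are on a C57BL/6 background. Cells taken by mechanical disruption from tumor-burdened spleens of untreated mice were cultured for 24 h with 5 μM ibrutinib, an inhibitor of the B-cell receptor kinase BTK, or with its vehicle DMSO, and their RNA was sequenced. No sorting step is described, so other spleen cells can be present, and the ages of these mice are not given in the sources used here. The 15 libraries were 3 Eμ-TCL1 (replicates 2, 3 and 4) and 5 p53-mutant (replicates 1 to 5) in DMSO, and 3 Eμ-TCL1 (replicates 1, 3 and 4) and 4 p53-mutant (replicates 1, 3, 4 and 5) in ibrutinib. Values for each gene are listed in these orders. They are read counts scaled to library size (CPM), with factors set by the authors separately in each table, so levels in DMSO and ibrutinib are set side by side without a test.

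N-glycans are assembled on the lipid dolichol, from sugars activated in the cytosol, on the cytosolic and then the lumenal face of the endoplasmic reticulum (ER). The oligosaccharyltransferase moves the finished precursor onto asparagines of proteins entering the ER, where glucose trimming and the lectin chaperones calnexin and calreticulin monitor folding. Golgi mannosidases and N-acetylglucosaminyltransferases then remodel the glycan into branched forms, and in B cells the immunoglobulin chains and the receptor's Igα and Igβ subunits are among the glycoproteins so made.

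The libraries differed in their content of other cells, which touches every result that follows. The summed level of 9 B-cell markers, which include the receptor subunits Cd79a and Cd79b, was between 1788 and 3571 in Eμ-TCL1 replicates 3 and 4 of both treatments and p53-mutant replicates 3, 4 and 5 of DMSO, and 1009 and 1008 in p53-mutant replicates 4 and 5 of ibrutinib. It was under 500 in the remaining 6 libraries, at 36.6 to 418.4. Among these, Eμ-TCL1 replicate 2 of DMSO and replicate 1 of ibrutinib had summed levels of 29142 and 20552 for the 9 myeloid markers, against at most 1168 elsewhere, and of 17270 and 14990 for the 7 erythroid markers found, against at most 256.3 elsewhere. P53-mutant replicates 1 and 2 of DMSO and replicate 1 of ibrutinib had summed T-cell markers (10 genes) of 2800, 3219 and 1912. P53-mutant replicate 3 of ibrutinib held 1285 for the T-cell markers and 418.4 for the B-cell markers. In ibrutinib the T-cell sum was 136.6 to 460.4 in Eμ-TCL1 and 665.1 to 1912 in p53-mutant libraries, and the sum of the 10 proliferation genes was 208.4 to 1020 and 75.9 to 119.1, so neither overlapped between the genotypes. The plasma-cell list (6 of 8 genes found in ibrutinib) summed to 208.4 to 802.8 and 71.8 to 439.0. In bulk RNA, fewer cells of a type and less RNA per cell cannot be told apart, and the part of these other cells in the differences below was not tested.

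**Figure D1:**
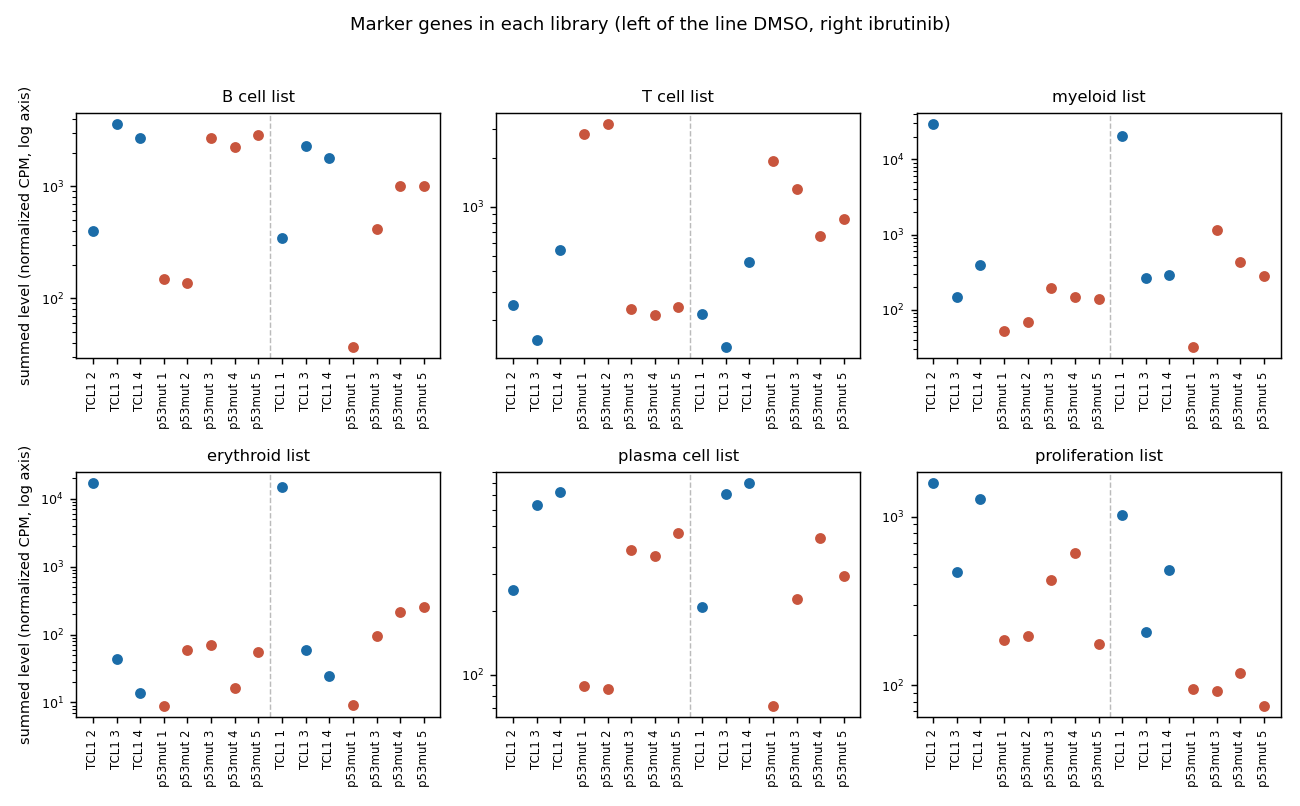
Summed level of each marker list (normalized CPM, log axis) in the 15 libraries, with Eμ-TCL1 in blue and p53-mutant (p53mut) in red and DMSO left of the dashed line. Eμ-TCL1 replicate 2 of DMSO and replicate 1 of ibrutinib stand high in the myeloid and erythroid lists, and p53-mutant replicates 1 and 2 of DMSO and 1 of ibrutinib stand high in the T-cell list.

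Per kilobase of exon, Calr was the highest member and Alg6 the lowest. The mean level per kilobase of Calr, the soluble lectin chaperone, was 176 in Eμ-TCL1 and 122 in p53-mutant libraries in DMSO, and 109 and 58.8 in ibrutinib. Canx and Man1a followed in each table, with 93.7 and 113 per kilobase in Eμ-TCL1 and 74.6 and 42.2 in p53-mutant libraries in DMSO. Alg6, a glucosyltransferase of the precursor, stood between 0.673 and 1.54 in the 4 groups. The glycosyltransferases of the dolichol-linked precursor (Alg genes and Dpagt1) lay between 0.673 and 10 per kilobase, the catalytic and core transferase subunits Stt3a, Stt3b, Rpn1, Rpn2 and Ddost between 8.35 and 49.2. By CPM without length, Man1a was the highest member over all libraries, with a mean of 593.0, and Alg14 the lowest, with 4.0. Alg14 was 4.8, 4.6 and 4.6 in Eμ-TCL1 and 5.2, 5.8, 5.0, 4.3 and 4.1 in p53-mutant libraries in DMSO, and 3.2, 3.3 and 3.9 against 3.0, 2.5, 3.6 and 1.9 in ibrutinib. Man1a, which trims mannose in the Golgi, took 29.5% and 21.6% of the summed level of the 44 genes in Eμ-TCL1 replicates 3 and 4 of DMSO and 31.1% and 23.2% in replicates 3 and 4 of ibrutinib. It took between 6.52% and 15.8% in each of the other 11 libraries.

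**Figure D2:**
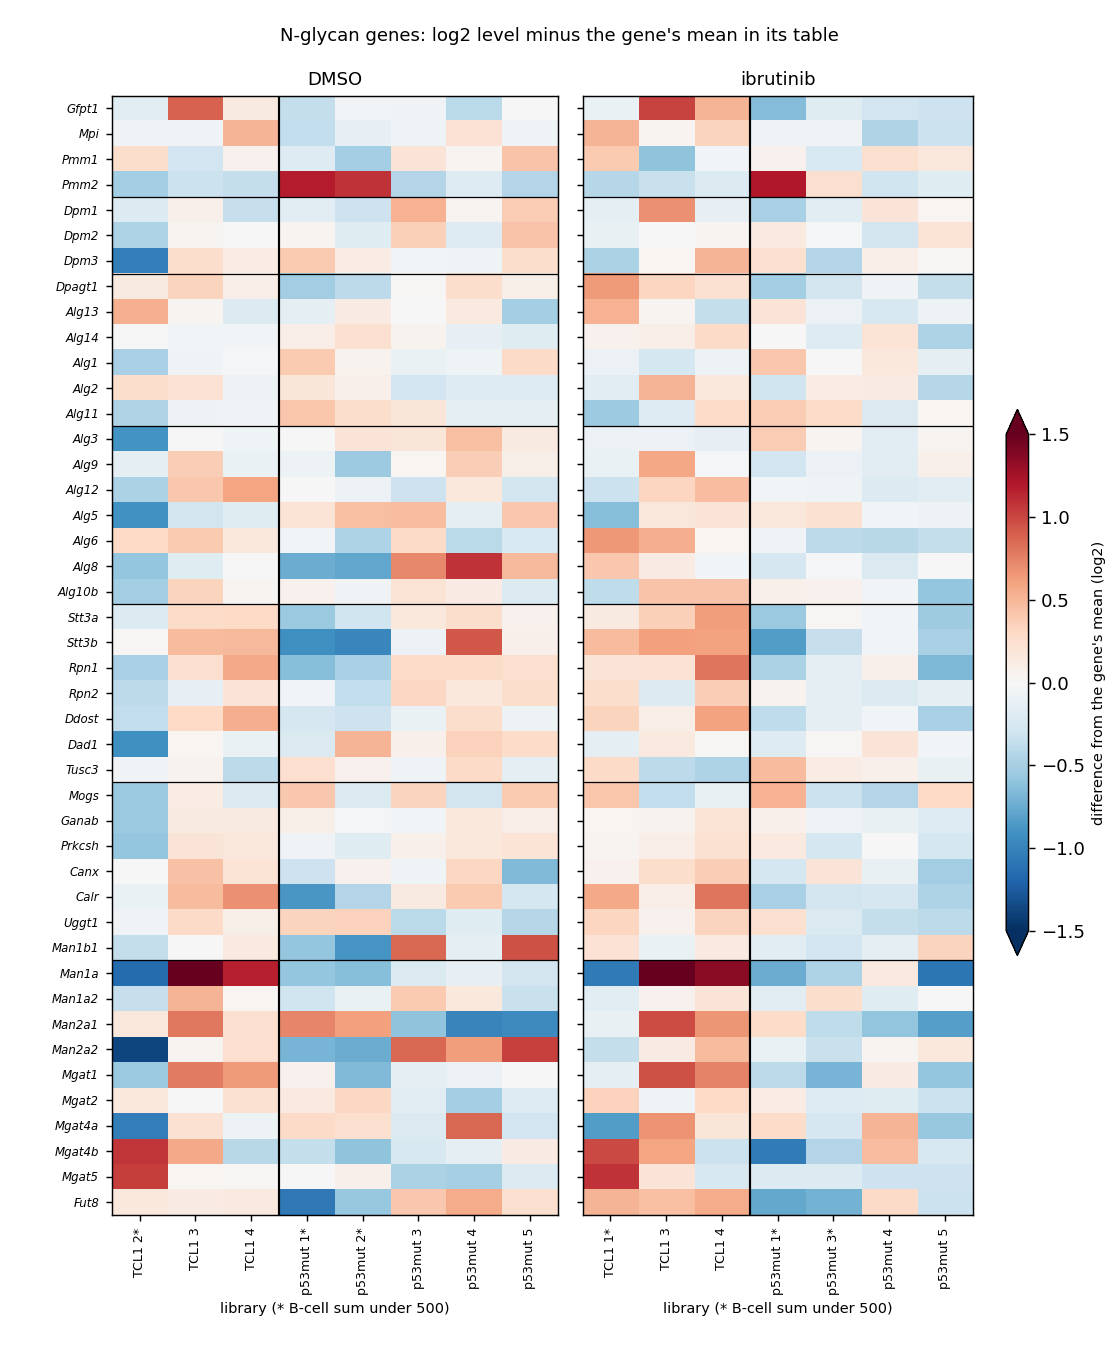
Each row is a member in pathway order and each column a library, with DMSO left and ibrutinib right and the genotypes separated by the black vertical line. Color gives the log2 level (pseudocount 1) minus the gene's mean in its table. Man1a is high in Eμ-TCL1 replicates 3 and 4 of each table, Pmm2 in the T-cell-rich p53-mutant libraries, and asterisks mark the libraries with summed B-cell markers under 500.

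In DMSO, no member passed an adjusted p of 0.05 between the genotypes (limma, Benjamini-Hochberg over all genes). Of all 16470 genes, 0.0121% passed. The members were spread to both sides, with 20 higher and 24 lower in p53-mutant libraries and a median log2 change of -0.08, beside 0.04 over all genes. Of all genes, 8777 were higher and 7693 lower. At an unadjusted p under 0.05, 1 member was higher (Alg5) and 0 were lower, against 3.52% and 4.65% of all genes. Alg5 was also the 1 member whose groups did not overlap, in a table where 3.52% of genes were higher and 2.93% lower without overlap.

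In ibrutinib, 35 members were lower and 9 higher in p53-mutant libraries, with a median log2 change of -0.27, beside -0.05 over all genes. Of all 16428 genes, 8937 were lower and 7491 higher. Again no member passed the adjusted threshold, and neither did any gene of the table (0%), so the smallest adjusted p among members was 0.212, for Stt3b. At an unadjusted p under 0.05, 11 members were lower and 0 higher, where 6.32% of all genes were lower and 5.69% higher. These were Gfpt1, Dpagt1, Alg6, Stt3a, Stt3b, Rpn1, Ddost, Calr, Man2a1, Mgat1 and Fut8. The 11 came from 6 of the 7 steps, with 4 among the 7 transferase subunits. Without overlap, 10 members were lower (Mpi in place of Man2a1 and Mgat1) and 0 higher, against 5.97% and 6.68% of all genes. Quantile normalization moved the median of all genes in ibrutinib from -0.05 to 0.07 and turned the split of genes at an unadjusted p under 0.05 from 934 higher and 1039 lower to 1372 higher and 696 lower. With it, 30 members were lower and 14 higher, beside 7223 and 9205 of all genes. At that p, 8 members were lower and 0 higher. The median of the members lay 0.20 below that of all genes instead of 0.22.

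The difference between the genotype effects of the tables (the interaction, fitted over 15 libraries) was negative in 39 of 44 members. Of all 15869 genes, 9379 were negative, and the medians were -0.31 for the members and -0.07 over all genes. Among genes with a mean value of at least 5, it was negative in 38 of 43 members and 7079 of 10627 genes, with medians of -0.30 and -0.13. No member had a limma interaction p under 0.05, adjusted or not, where 0% and 0.523% of all genes did. With quantile normalization 28 of 44 members were negative, beside 8277 of 15869 genes. Dad1 and Alg5 had the lowest interaction p among members, 0.122 (log2 difference -0.54) and 0.127 (-0.57), each with an adjusted p of 1. Without Eμ-TCL1 replicate 2 of DMSO the differences were -0.24 for Dad1 and -0.34 for Alg5. This fit treats all libraries as independent, and few genes of any kind passed in it, so it says little about a lack of difference. With a block for genotype and replicate number, 788 of 15869 genes had a limma interaction p under 0.05. Among these were 3 members, all lower, and 0 members passed the adjusted threshold. The lower members in ibrutinib are thus not shown to differ from their change in DMSO, where all 11 also had a negative log2 change.

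**Figure D3:**
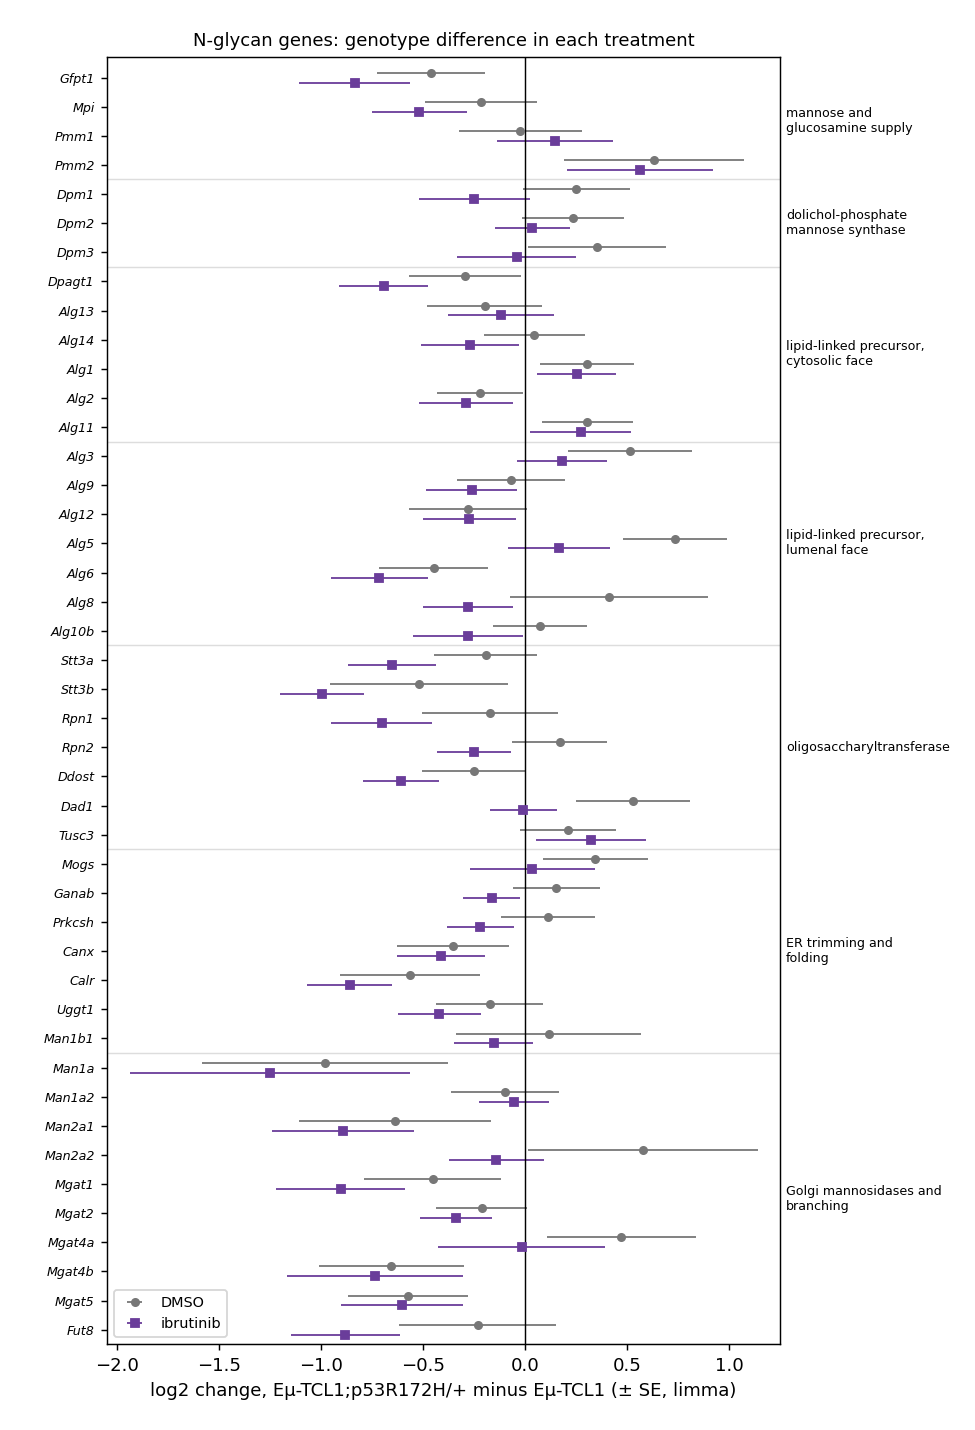
Log2 change of each member, p53-mutant minus Eμ-TCL1, with its limma standard error, in DMSO (grey circles) and ibrutinib (purple squares). The transferase and Golgi members lie mostly left of 0 in ibrutinib, and Alg5 lies farthest to the right in DMSO, at 0.73.

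Among the 4 genes that supply the activated sugars, Gfpt1 and Mpi were lower in p53-mutant libraries in ibrutinib, and Pmm2 followed the T-cell-rich libraries. Gfpt1 makes glucosamine phosphate, the entry to the hexosamine pathway. In DMSO, Gfpt1 was 85.4, 178.1 and 105.5 in Eμ-TCL1 and 74.2, 92.7, 92.2, 72.2 and 95.5 in p53-mutant libraries. With ibrutinib its values were 67.5, 147.1 and 103.5 against 45.6, 63.7, 58.8 and 58.0, without overlap. The log2 change was -0.46 in DMSO (limma, SE 0.26, adjusted p = 0.645) and -0.84 in ibrutinib (SE 0.27, adjusted p = 0.332). Mpi, which converts fructose phosphate to mannose phosphate, was low in every library (3.1 to 10.9), with a log2 change of -0.52 in ibrutinib.
Pmm2, a phosphomannomutase, was 164.3 and 153.7 in p53-mutant replicates 1 and 2 of DMSO and 52.8, 63.0 and 52.8 in replicates 3, 4 and 5, against 50.4, 57.5 and 55.9 in Eμ-TCL1. With ibrutinib it was 127.7, 65.2, 44.6 and 48.1 in p53-mutant libraries against 40.6, 43.2 and 47.7. The high values are those of the libraries with the most T-cell transcripts. The log2 change in ibrutinib was 0.56, the lowest p of the members with a higher mean (limma, adjusted p = 0.55), 0.24 without p53-mutant replicate 1, and 0.03 among libraries with summed B-cell markers of at least 500. The other phosphomannomutase, Pmm1, was between 5.4 and 13.4 in all libraries.

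The 3 subunits of dolichol-phosphate mannose synthase, which makes the lumenal mannose donor, overlapped between the genotypes in both tables. Dpm1, the catalytic subunit, ranged from 15.4 to 36.0, and its anchoring subunits Dpm2 and Dpm3 from 12.5 to 28.9 and from 6.2 to 18.4. Their log2 changes were between 0.24 and 0.35 in DMSO and between -0.25 and 0.04 in ibrutinib. Of the annotated exon bases of Dpm1, 12% are shared with Gm20716 on the same strand.

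On the cytosolic face, Dpagt1 differed most in ibrutinib among 6 enzymes. It adds the initial N-acetylglucosamine phosphate to dolichol phosphate and is the target of tunicamycin. In ibrutinib Dpagt1 was 12.9, 10.2 and 9.5 in Eμ-TCL1 and 5.3, 6.4, 7.6 and 6.0 in p53-mutant libraries (log2 change -0.69, SE 0.22, limma adjusted p = 0.319). In DMSO the values overlapped, 11.9, 13.8 and 11.6 against 7.2, 8.0, 10.9, 13.1 and 11.5. Alg13 and Alg14, which add the next sugar as a pair, and the mannosyltransferases Alg1, Alg2 and Alg11 overlapped in both tables. Alg1 had the second lowest p of the members with a higher mean in ibrutinib, with 15.3, 13.4 and 15.4 against 22, 16.2, 18.4 and 14.8 (log2 change 0.25, limma adjusted p = 0.593, and 0.15 without p53-mutant replicate 1). In DMSO Alg1 was 14.4, 19.9 and 20.2 against 27.4, 21.4, 19.2, 19.6 and 25.4. A share of 17.6% of its exon bases lies opposite Eef2kmt, and the strand setting of the counting is not given in the sources used here.

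Among the genes counted with the lumenal steps, Alg5 was higher in p53-mutant libraries in DMSO and Alg6 lower in ibrutinib. Alg5 is counted here for the steps that use its product. Alg5 makes dolichol-phosphate glucose, the donor for the last sugars of the precursor (ENSMUSG00000036632, chromosome 3 from 54735539 to 54751318, GRCm38). In DMSO it was 13.5, 21.5 and 23.0 in Eμ-TCL1 and 30.5, 36.4, 36.7, 23.6 and 35 in p53-mutant libraries. The groups all but touched, at Eμ-TCL1 replicate 4 and p53-mutant replicate 4. The log2 change was 0.73 (limma SE 0.26, p = 0.020, adjusted p = 0.546, exact permutation p = 0.0357), and 0.47 among libraries with summed B-cell markers of at least 500. In ibrutinib Alg5 was 11.8, 21.5 and 21.8 against 21.5, 22.5, 18.5 and 17.9, a log2 change of 0.17.
The 3 glucosyltransferases that use this donor, Alg6, Alg8 and Alg10b, overlapped between the genotypes in DMSO, where Alg6 was 13.3, 14.2 and 11.9 against 10.3, 7.4, 13.2, 7.8 and 8.9. In ibrutinib Alg6 was 12, 11.1 and 7.5 in Eμ-TCL1 and 7.0, 5.3, 5.2 and 5.5 in p53-mutant libraries (log2 change -0.71, SE 0.24, limma adjusted p = 0.337). Alg8 in DMSO was 9.3, 12.6 and 14.3 in Eμ-TCL1 and 8.2, 8.0, 24.3, 31.8 and 20.6 in p53-mutant libraries, so the p53-mutant group split into its T-cell-rich replicates 1 and 2 and the rest. In ibrutinib Alg8 was between 4.1 and 7.0 in all 7 libraries. The mannosyltransferases Alg3, Alg9 and Alg12 overlapped in both tables, with log2 changes of 0.51, -0.07 and -0.28 in DMSO and 0.18, -0.26 and -0.27 in ibrutinib. Exon bases shared with genes on the opposite strand made up 8.70% for Alg3 and 12.9% for Alg9.

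Of the 7 oligosaccharyltransferase subunits, Stt3a, Stt3b, Rpn1 and Ddost were lower in p53-mutant libraries in ibrutinib without overlap, and Rpn2, Dad1 and Tusc3 overlapped. Stt3b, the catalytic subunit that glycosylates sites after translation (ENSMUSG00000032437, chromosome 9 from 115242581 to 115310421), had the lowest p of all members. The ibrutinib values were 138.6, 152.4 and 151.6 in Eμ-TCL1 and 54.9, 78.0, 96.5 and 70.4 in p53-mutant libraries. The lowest Eμ-TCL1 value exceeded the highest p53-mutant value by more than the whole range of the p53-mutant group. The log2 change was -0.99 (SE 0.21, limma p = 0.00169, adjusted p = 0.212), with an exact permutation p of 0.0286, the smallest that 35 splits allow.
In DMSO, Stt3b was 165.5, 227.9 and 229.2 in Eμ-TCL1 and 86.2, 82.4, 154.4, 312.7 and 173.1 in p53-mutant libraries. The T-cell-rich replicates 1 and 2 were lowest and replicate 4 was the highest of all, so the groups overlapped (log2 change -0.52, SE 0.44, limma adjusted p = 0.689). Among libraries with summed B-cell markers of at least 500, the log2 change of Stt3b was -0.17 in DMSO and -0.87 in ibrutinib, and without p53-mutant replicates 1 and 2 it was -0.02 in DMSO. Stt3a, the catalytic subunit that acts during translation, was 98.5, 115.1 and 138.1 against 60.6, 90.2, 86.7 and 61.5 in ibrutinib, a log2 change of -0.65 (SE 0.22).
Rpn1 and Ddost are subunits of both transferase complexes. In ibrutinib Rpn1 was 76.9, 77.8 and 117.3 against 48.0, 60.9, 70.8 and 41.5 (log2 change -0.70, SE 0.25), and Ddost was 67.8, 57.7 and 81.9 against 40.9, 48.5, 52.2 and 38.1 (-0.61, SE 0.19). Neither overlapped between the genotypes. Rpn2, their partner in the same complexes, was 105.5, 75.9 and 113.7 against 91.2, 79.8, 76.0 and 79.0, with a log2 change of -0.25. Dad1, a small core subunit, was 23.3, 29.0 and 26.3 against 22.6, 26.4, 29.9 and 25.3, and its log2 change was -0.01 with an SE of 0.17 (0.10 with quantile normalization). Tusc3, an oxidoreductase subunit of the Stt3b complex, was 9.4, 5.5 and 5.2 against 10.8, 8.2, 8.0 and 6.9, higher in the mean by 0.32 on the log2 scale. In DMSO the 7 subunits overlapped. Dad1 in that table was 19.7, 39.0 and 35.7 in Eμ-TCL1 and 32.8, 54.9, 40.4, 49.0 and 46.5 in p53-mutant libraries (log2 change 0.53, SE 0.28, limma adjusted p = 0.645). The change of Dad1 in DMSO was 0.23 without the myeloid-rich Eμ-TCL1 replicate 2 and 0.27 among libraries with summed B-cell markers of at least 500.

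**Figure D4:**
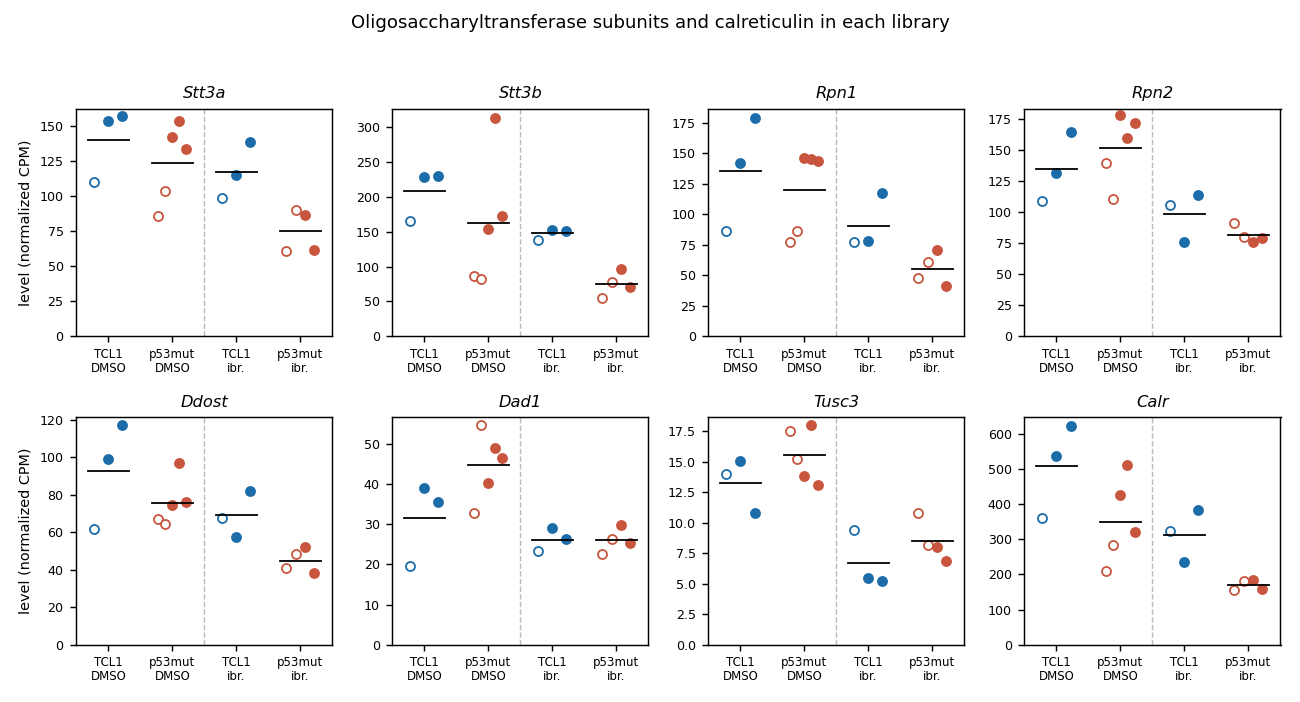
Level (normalized CPM) of the 7 oligosaccharyltransferase subunits and Calr in every library, with group means as bars, Eμ-TCL1 in blue and p53-mutant in red, and open symbols for libraries with summed B-cell markers under 500. In ibrutinib, right of the dashed line, the genotypes separate for Stt3a, Stt3b, Rpn1, Ddost and Calr and overlap for Rpn2, Dad1 and Tusc3.

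In the ER folding cycle, Calr was lower in p53-mutant libraries in ibrutinib, and the glucosidases overlapped. Calr encodes calreticulin, which holds monoglucosylated glycoproteins (ENSMUSG00000003814, chromosome 8 from 84841850 to 84846934). In ibrutinib it was 324.1, 234.3 and 382.9 in Eμ-TCL1 and 155.9, 180.1, 183.2 and 157.8 in p53-mutant libraries, without overlap. The log2 change was -0.86 (SE 0.21, limma p = 0.00393, adjusted p = 0.238, exact permutation p = 0.0286). In DMSO, Calr was 361.7, 538.4 and 624.0 against 210.5, 285.2, 425.4, 511.0 and 321.9, which overlapped, with a log2 change of -0.56. Its membrane-bound homolog Canx was 282.4, 323.6 and 348.3 against 223.5, 308.7, 248.5 and 186.8 in ibrutinib (log2 change -0.41), where p53-mutant replicate 3 lay inside the Eμ-TCL1 range.
Uggt1, which adds glucose back to misfolded proteins, was 196.2, 163.9 and 197.7 against 185.8, 134.7, 122.4 and 118.9 in ibrutinib, and the T-cell-rich replicate 1 overlapped the Eμ-TCL1 values. Mogs, which removes the outermost glucose, and the glucosidase II subunits Ganab and Prkcsh had log2 changes of 0.04, -0.16 and -0.22 in ibrutinib and of 0.34, 0.15 and 0.11 in DMSO. Man1b1, the ER mannosidase, was 174.2 and 185.7 in p53-mutant replicates 3 and 5 of DMSO and between 51.0 and 105.3 in the other 6 libraries. With ibrutinib Man1b1 was between 49.0 and 75.9 in all 7.

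The promoters of Calr, Canx and Alg12 hold the ER stress response element, through which the factors ATF6 and XBP1 act. The element was searched as CCAAT, 9 bases of any kind and CCACG on both strands, in windows from 250 bases before to 50 after the RefSeq transcription start (GRCm38.p6). Windows were found for 37 of 44 members, and 3 of them (8.11%) held the element, beside 37 of 27025 genes (0.137%) over all promoters. They are shown because 2 of them belong to the lectin chaperones. Capitals mark the element, which lies on the opposite strand in Calr.
Calr (chr8:84846882-84847181, minus strand): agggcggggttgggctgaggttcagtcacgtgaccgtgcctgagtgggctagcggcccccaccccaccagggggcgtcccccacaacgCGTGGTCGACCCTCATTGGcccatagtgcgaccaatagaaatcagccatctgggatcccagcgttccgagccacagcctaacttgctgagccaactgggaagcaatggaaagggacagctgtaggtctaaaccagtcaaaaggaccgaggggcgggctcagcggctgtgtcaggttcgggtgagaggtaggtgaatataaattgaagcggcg
Canx (chr11:50325624-50325923, minus strand): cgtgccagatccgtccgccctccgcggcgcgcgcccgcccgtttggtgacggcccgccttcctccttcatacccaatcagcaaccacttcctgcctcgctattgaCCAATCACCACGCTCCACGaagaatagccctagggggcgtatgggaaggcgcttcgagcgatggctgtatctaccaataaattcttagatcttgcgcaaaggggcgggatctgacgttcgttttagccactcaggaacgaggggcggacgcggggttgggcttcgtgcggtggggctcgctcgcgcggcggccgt
Alg12 (chr15:88819269-88819568, minus strand): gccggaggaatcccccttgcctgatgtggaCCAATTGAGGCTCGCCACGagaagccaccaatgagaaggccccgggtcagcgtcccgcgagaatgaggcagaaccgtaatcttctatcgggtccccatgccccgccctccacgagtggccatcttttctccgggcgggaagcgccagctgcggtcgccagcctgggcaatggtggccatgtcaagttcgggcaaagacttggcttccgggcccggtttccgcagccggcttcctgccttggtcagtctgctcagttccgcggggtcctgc
Each element contains a CCAAT box, which alone was in 56.8% of member genes and 41.1% of all genes. In ibrutinib the log2 change was -0.86 for Calr, -0.41 for Canx and -0.27 for Alg12, a mannosyltransferase whose values overlapped (12.4 to 22.2 against 13.5 to 15.3). The shorter element TGACGTG was in the windows of Dpm2 and Mogs (5.41% of member genes, 2.22% of all), whose log2 changes in ibrutinib were both 0.04. A match is a description of the sequence and not evidence of binding.

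All 10 Golgi members had a negative log2 change in ibrutinib, or 7 of 10 with quantile normalization, where Man1a2, Man2a2 and Mgat4a turned positive. In DMSO 8 of 10 had a negative log2 change, with Man2a2 and Mgat4a positive. Man1a had the largest log2 change of all members in both tables and the widest spread (ENSMUSG00000003746, chromosome 10 from 53904785 to 54076609). In DMSO it was 232.7, 1853.1 and 1170.1 in Eμ-TCL1 and 347.1, 334.0, 449.3, 476.7 and 429.0 in p53-mutant libraries. With ibrutinib the values were 181.4, 1357.2 and 969.2 against 225.6, 274.0, 416.8 and 178.2. The 2 high Eμ-TCL1 replicates, 3 and 4, exceeded every p53-mutant library in each table, whereas the myeloid-rich replicate lay below or among them. The log2 change was -0.98 in DMSO (limma SE 0.60, adjusted p = 0.645) and -1.25 in ibrutinib (SE 0.69, adjusted p = 0.503), and -1.70 and -2.07 among libraries with summed B-cell markers of at least 500. Without Eμ-TCL1 replicate 3 the changes of Man1a were -0.37 and -0.69, and without the myeloid-rich replicate -1.87 and -2.13. Its paralog Man1a2 differed by -0.10 and -0.05.
Man2a1 and Man2a2 encode the Golgi mannosidases II. In DMSO, Man2a1 was 191.1, 292.8 and 200.1 in Eμ-TCL1 and 282.2, 261.1, 111.3, 84.8 and 86.7 in p53-mutant libraries, while Man2a2 was 102.4, 276.8 and 318.9 against 165.3, 159.9, 489.2, 416.0 and 548.0. The p53-mutant replicates 3, 4 and 5 thus had the lowest Man2a1 and the highest Man2a2 of the table, and replicates 1 and 2 did not. In ibrutinib Man2a1 was 157.2, 338.3 and 271.3 against 205.8, 130.9, 112.5 and 95.6 (log2 change -0.89, limma SE 0.35, adjusted p = 0.382). Man2a2 was 97.7, 136.8 and 174.4 against 116.5, 98.9, 129.2 and 139.4 there, a log2 change of -0.14.
Mgat1 opens the path to complex glycans. In ibrutinib it was 90.7, 194.9 and 168.4 in Eμ-TCL1 and 76.4, 61.2, 109.3 and 66.5 in p53-mutant libraries (log2 change -0.91, limma SE 0.32, adjusted p = 0.347), and p53-mutant replicate 4 exceeded the myeloid-rich Eμ-TCL1 replicate. Fut8, which adds the core fucose, was 63.5, 61.1 and 65.8 against 25.8, 26.7, 54.4 and 35.4 (log2 change -0.88, SE 0.27, adjusted p = 0.316). In DMSO, Fut8 was 81.9, 79.6 and 81.2 in Eμ-TCL1 and 34.1, 48.9, 97.4, 108.3 and 86.5 in p53-mutant libraries, so the p53-mutant libraries lay on both sides of a narrow Eμ-TCL1 range, with the T-cell-rich replicates below.
Mgat5 and Mgat4b, which add outer branches, had the lowest p of the members with a lower mean in DMSO. Mgat5 was 67.0, 32.9 and 32.7 against 32.5, 34.1, 23.0, 22.6 and 27.9 in DMSO (log2 change -0.58, SE 0.30, limma adjusted p = 0.638) and 68.8, 36.5 and 26.8 against 27.4, 27.6, 25.5 and 25.4 in ibrutinib. Mgat4b was 34.9, 24.4 and 11.8 against 12.3, 10.2, 13.5, 14.4 and 17.6 in DMSO (log2 change -0.66, SE 0.36, limma adjusted p = 0.645) and 37.7, 28.4 and 14.5 against 8.4, 13.4, 25.9 and 15.4 in ibrutinib. For both genes the highest value of each table was in the myeloid-rich Eμ-TCL1 library, and without it the changes in DMSO were -0.24 for Mgat5 and -0.32 for Mgat4b (-1.07 for Mgat4b without Eμ-TCL1 replicate 4). Mgat2 and Mgat4a overlapped in both tables, with log2 changes of -0.34 and -0.02 in ibrutinib.

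**Figure D5:**
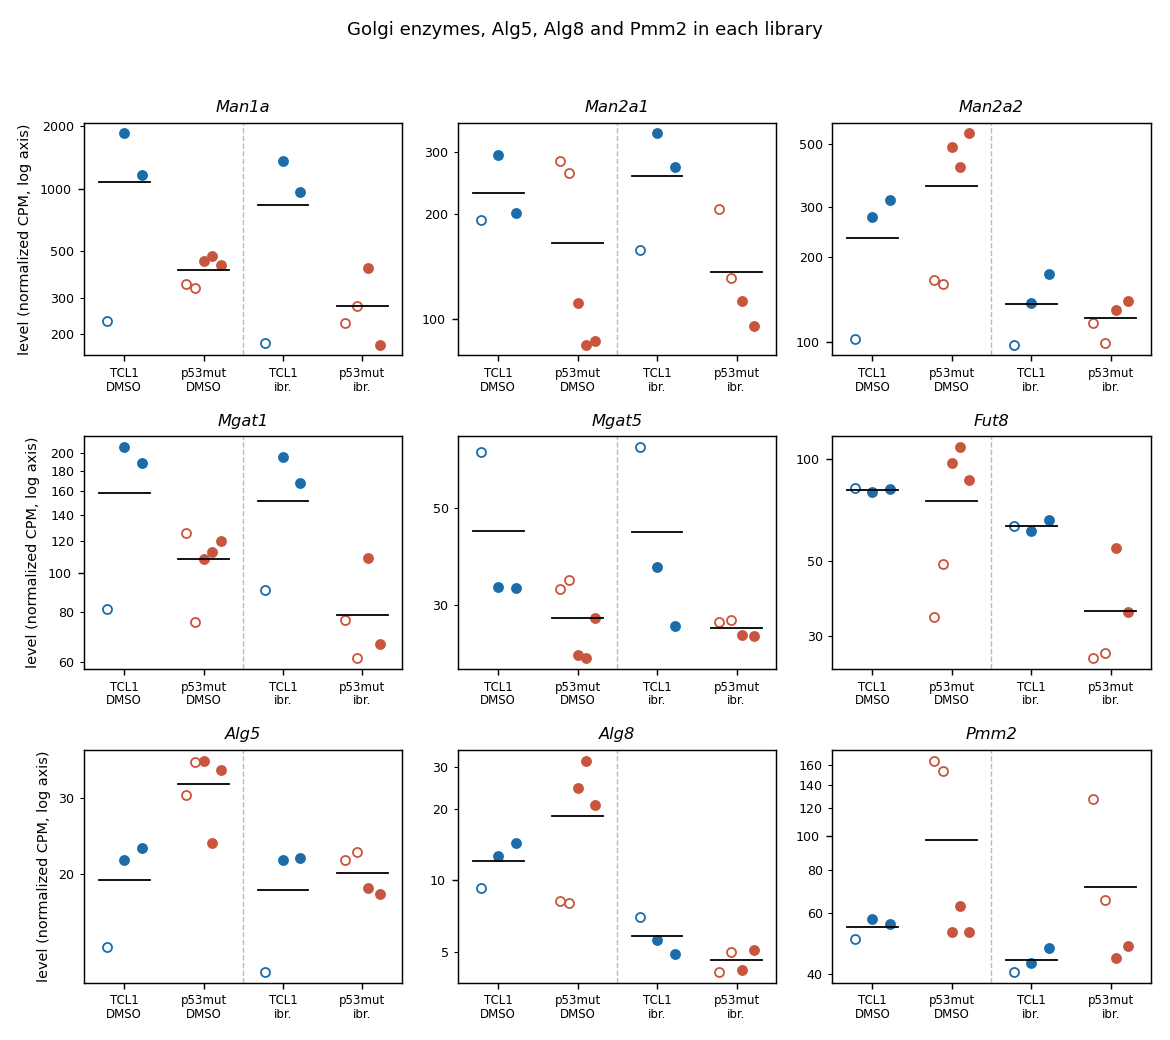
Level (normalized CPM, log axis) of 6 Golgi members and of Alg5, Alg8 and Pmm2 in every library, with group means as bars, Eμ-TCL1 in blue, p53-mutant in red and open symbols for libraries with summed B-cell markers under 500. Man1a is highest in Eμ-TCL1 replicates 3 and 4, and Pmm2 in the 3 p53-mutant libraries with the most T-cell transcripts.

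Ratios of partner genes within a library largely cancel the scaling factor and can be set across the tables. A pseudocount of 1 was added to each gene, so the factor does not fully cancel for low genes such as Alg14 and Pmm1. Over 9 pairs and 36 comparisons, no ratio had an exact permutation p under 0.05 with the libraries unpaired, with the smallest at 0.0794 and an adjusted p of 0.505, and the 3 against 3 Eμ-TCL1 libraries could not reach under 0.1. The glucosidase II subunits Ganab and Prkcsh kept the narrowest ratio, between 1.23 and 1.65 on the log2 scale over the 15 libraries. Stt3a over Stt3b was between -0.59 and -0.54 in the 3 Eμ-TCL1 libraries of DMSO and between -0.49 and -0.13 in ibrutinib. In p53-mutant libraries it ranged from -1.03 to 0.32 in DMSO and from -0.19 to 0.21 in ibrutinib. Man2a1 over Man2a2 was -2.13, -2.28 and -2.65 in p53-mutant replicates 3, 4 and 5 of DMSO and between -0.67 and 1.30 in the other 12 libraries. Pmm1 over Pmm2 was -4.14 and -4.37 in the T-cell-rich replicates 1 and 2 of DMSO and between -3.66 and -1.70 elsewhere.

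Pairing the treatments by genotype and replicate number, a choice made after seeing the data, left 6 pairs of libraries, and 4 of the 9 ratios then moved one way in all 6. The log2 ratio of Man2a1 to Man2a2 was higher with ibrutinib by 1.55 (SD 0.89, n = 6 pairs), with differences from 0.05 to 2.53. That of Canx to Calr was higher by 0.54 (SD 0.34), with a smallest difference of 0.0039, and that of Stt3a to Stt3b by 0.35 (SD 0.28). The ratio of Mgat4a to Mgat4b was lower, at 3.28 in DMSO and 2.58 with ibrutinib, a mean difference of -0.70 (SD 0.57). Each of the 4 had a two-sided exact permutation p of 0.0312, the smallest that 6 pairs allow, and an adjusted p of 0.0703 over the 9 ratios. The marker sums also moved within the pairs, with a lower B-cell sum with ibrutinib in all 6. In p53-mutant replicates 3, 4 and 5 that sum was 2719, 2255 and 2894 in DMSO and 418.4, 1009 and 1008 with ibrutinib. Their T-cell sum went from 234.6, 216.8 and 241.6 to 1285, 665.1 and 838.4, whereas it was lower with ibrutinib in the other pairs. The tables were scaled separately, and 41 members also had a smaller mean value in the ibrutinib table. A lower B-cell sum thus does not by itself show fewer B cells. Whether cell content changed within the pairs, and its part in these ratios, was not tested. Same-numbered libraries resembled each other in 5 of the 6 pairs, and p53-mutant replicate 3 did not. The correlations of their deviations from the group mean over all genes were 0.71 to 0.84, and -0.10. Between differently numbered libraries of a genotype these ran from -0.81 to 0.89, the highest between the myeloid-rich Eμ-TCL1 libraries. A resemblance thus does not show that a number marks the same mouse. Without p53-mutant replicate 3 the same 4 ratios moved one way in the other 5 pairs, which cannot reach a p under 0.0625.

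Leaving out the libraries with summed B-cell markers under 500, a choice made after seeing the data, left 2 Eμ-TCL1 and 3 p53-mutant libraries in DMSO and 2 and 2 in ibrutinib. No member passed the adjusted threshold in these fits. In ibrutinib, 24 members were then lower without overlap and 2 higher (Pmm1 and Tusc3), where 23.4% and 19.3% of all genes did so. The 24 included 7 of 10 Golgi members, 5 of 7 ER folding members and 4 of 7 transferase subunits. All 11 members with an unadjusted p under 0.05 (limma) in the full set were among them. These libraries are part of that set, where all of the 11 but Man2a1 and Mgat1 already had no overlap. Those members could not overlap here, so their recurrence is no further support. The 2 p53-mutant libraries still had summed B-cell markers of 1009 and 1008, against 2312 and 1788 in Eμ-TCL1, and summed T-cell markers of 665.1 and 838.4 against 136.6 and 460.4. In DMSO, where the summed B-cell markers were 2255 to 2894 in p53-mutant and 2703 to 3571 in Eμ-TCL1 libraries, 12 members were lower and 6 higher without overlap, against 16.2% and 16.5% of all genes. The 12 were Gfpt1, Alg2, Alg12, Stt3a, Ddost, Calr, Uggt1, Man1a, Man2a1, Mgat1, Mgat2 and Mgat5, and the 6 were Alg3, Alg5, Alg8, Dad1, Man2a2 and Fut8. All 12 were among the 24 of ibrutinib, and replicate numbers 3, 4 and 5 recur in both tables, so the tables are not shown to be independent. Fut8 and Alg5 had log2 changes of 0.27 and 0.47 in DMSO in these libraries, and of -0.52 and -0.24 in ibrutinib. The log2 change of Mgat1 was -0.79 in DMSO and -1.08 in ibrutinib, and that of Man2a1 was -1.36 and -1.54.

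Summarized by step, as the mean over its genes of the log2 level minus the gene's mean in the table, the transferase level in ibrutinib was 0.22, 0.12 and 0.37 in Eμ-TCL1 and -0.27, -0.09, 0.00 and -0.35 in p53-mutant libraries. The groups did not overlap, and their means differed by -0.41. The ER folding genes and the cytosolic-face genes also had levels that did not overlap in ibrutinib, with differences of -0.31 and -0.14. The ER folding groups all but touched, at 0.017 in Eμ-TCL1 replicate 3 and 0.0087 in p53-mutant replicate 1. The cytosolic-face level was 0.07, 0.08 and 0.09 against 0.03, -0.03, -0.005 and -0.24, so p53-mutant replicate 5 lay far below the rest. The Golgi level differed by -0.58 with overlap, since the myeloid-rich Eμ-TCL1 replicate stood at 0.03 and p53-mutant replicate 4 at 0.03. In DMSO the 7 step levels overlapped, and their differences ranged from -0.28 for the Golgi genes to 0.28 for dolichol-phosphate mannose synthase. These levels are given without a test, since the members were chosen with results known. Alternatives for these levels were a median over the step, a pseudocount of 0.1, quantile normalization, and leaving out the libraries low in B-cell markers by either rule. Over these, both tables and all levels, 7 of the differences in the level of a step or of all members moved by at least the SD within groups. The 7 are not broken down by step here, so the separations above are not shown to be stable.

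Of 42 other genes of the pathway, 41 were in both tables. In ibrutinib 34 of 41 were lower in p53-mutant libraries, where 8937 of all 16428 genes were. The median log2 change of the 41 was -0.26, beside -0.05 over all genes. At an unadjusted p under 0.05, 4 were lower (9.76%) and 0 higher, where 6.32% of all genes were lower and 5.69% higher. Without overlap, 6 were lower (14.6%) and 0 higher, against 5.97% and 6.68% of all genes. Dhdds, a subunit of the enzyme that makes the dolichol chain, was 49.7, 41.5 and 41.7 in Eμ-TCL1 and 23.4, 30.3, 31.5 and 26.5 in p53-mutant libraries (log2 change -0.65, SE 0.17, limma adjusted p = 0.257). Magt1, the paralog of Tusc3, had a log2 change of -0.59, where that of Tusc3 was 0.32. Edem2, of the disposal of misfolded glycoproteins, and Lman1, a lectin that carries glycoproteins out of the ER, differed by -0.84 and -0.89. In DMSO 1 of the 41 had an unadjusted p under 0.05 (Edem2, lower, log2 change -0.61), or 2.44%, against 4.65% of all genes lower and 3.52% higher. There 0 were without overlap, where 2.93% of all genes were lower and 3.52% higher. The interaction p was under 0.05 for 1 of 41, against 0.523% of all genes, the galactosyltransferase B4galt5 (log2 difference -0.75, limma adjusted p = 1).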

How the data were processed

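RNA sequencing values of 15 libraries were deposited in 2 tables, 1 per treatment. The authors counted aligned reads per gene with HTSeq on a GENCODE annotation of GRCm38 (mm10) and normalized them with edgeR. The submitters' processing notes also name TopHat2 2.0.12 and SAMtools 0.1.19. The deposited signal values are CPM of an effective library size, with factors set separately in each table, rounded to 0.1. Whole reads could not be recovered, so no count test was run, and without depth no counting error can be stated.
Groups came from the sample labels. Genotypes were compared within each table on log2(value + 1) with limma 3.58.1 in R 4.3.3 (lmFit, eBayes with trend) over all genes, with Benjamini-Hochberg adjustment, and the interaction was fitted over the genes of both tables. The fold changes understate those of low genes. Ratios and single values were tested by two-sided exact permutation. Nothing states that replicates are separate mice beyond their numbers, so p-values measure the spread between these libraries. Levels per kilobase use the exon union of GENCODE M21 and promoters are from RefSeq. The fits were tested on simulated data with independent noise and planted changes larger than those of the members in the main fits. That test does not cover changes of the members' size.
The members and lists were chosen with earlier results of these data known. Per the naming rule, values in every library are given for the 2 members of lowest p per direction and table, the 2 of lowest interaction p, and the highest and lowest member by mean. For other members and pathway genes, names and values were picked once the values were known. No member was without overlap in both tables in one direction. Alternatives were sample weights, a block for the replicate number, pseudocounts of 0.1 and 5, quantile normalization, a filter at a mean of 5, and fits without single libraries, without the p53-mutant libraries with few B-cell transcripts, or, added later, without all libraries with summed B-cell markers under 500. 1 marker of the B-cell list is not reported here.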

Additional observations from a re-analysis of the deposited data

Results flagged for a closer look

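Dixon's test was applied to each member, ratio and step level in the 2 p53-mutant groups, 122 sets of values, and set 2 apart, fewer than the 1 in 20 that chance gives. Alg6 was 7.0 in p53-mutant replicate 1 of ibrutinib and between 5.2 and 5.5 in replicates 3, 4 and 5. The level of the ER trimming and folding genes was 0.0087 in the same library and between -0.20 and -0.17 in the other 3. This library had the most T-cell transcripts of its group, and their part in both values was not tested.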

How the results depend on the processing

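None of the members with an unadjusted p under 0.05 changed sign in any alternative fit, whereas 14 members in DMSO, 13 in ibrutinib and 19 in the interaction did so at least once. The former were picked for changes large beside their error in the same libraries, so their constant sign is no further support. In DMSO, sample quality weights gave 2 members past the adjusted threshold (Man1a and Mgat1, both lower, with -1.54 for Man1a). At an unadjusted p under 0.05 they gave 9 members lower and 2 higher. Of all 16470 genes, 803 passed that threshold, and 1977 were lower and 2170 higher at that p. Without the p53-mutant libraries with few B-cell transcripts 1 member was lower, and the median of the members turned to 0.06. Without those with summed B-cell markers under 500 it was 6 lower, each with 2 higher. Of all genes, 769 and 1435 were lower in these fits and 1074 and 1375 higher. Leaving out a library gave 0 to 5 members lower and 0 to 1 higher, and 1 lower without replicate 4 of either genotype. Without Eμ-TCL1 replicate 2 it gave 5 and 0, where 955 of all genes were lower and 498 higher. In ibrutinib 6 to 14 members were lower over the alternatives and none was higher, where 618 to 1738 of the tested genes were lower and 575 to 1372 higher. The median there was -0.13 with quantile normalization and -0.37 to -0.24 with a library left out (-0.37 without Eμ-TCL1 replicate 1). For the interaction, 4 members were lower at that p with quality weights and 5 without the libraries with few B-cell transcripts. Without those with summed B-cell markers under 500, 4 members were lower. Of all 15869 genes, 735, 569 and 456 were lower at that p in these fits, in this order. With a library left out, 0 to 1 member was lower (1 without p53-mutant replicate 1 of DMSO or Eμ-TCL1 replicate 1 of ibrutinib). The median interaction was -0.16 with quantile normalization and -0.42 to -0.13 with a library left out (-0.13 without Eμ-TCL1 replicate 2 of DMSO). Leaving out a library gave 0 to 1 ratio comparisons with an exact permutation p under 0.05, 1 without Eμ-TCL1 replicate 2 of DMSO or p53-mutant replicate 1 or 4 of ibrutinib. With a replicate block that pairs the treatments by number, 4 of the 9 ratios passed that p over both genotypes.
The replicate block gave 1 member lower in DMSO, 6 in ibrutinib and 3 in the interaction, where 482, 915 and 585 of all genes were lower. The numbers did not pair the genotypes, since same-numbered libraries had correlations of deviations of 0.05 to 0.25 in DMSO and of -0.17 to -0.05 in ibrutinib over all genes. Within a genotype these were 0.71 to 0.84 between treatments, except -0.10 for p53-mutant replicate 3. Differently numbered libraries of a genotype had -0.81 to 0.89 between treatments. The causes of these changes were not tested. Depth is unknown, so members near the rounding step, such as Alg14, are the least precise.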
